A study of Mus musculus with 6 samples.

Results

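Transcripts of 10 amino acid carriers were examined in cultured mouse neural stem cells (NSCs) from Tsc2 mut/mut and Tsc2 wt/wt mice. The set holds carriers of the plasma membrane and the lysosome that supply the growth kinase complex mTORC1, was taken by gene symbol, and comprises 10 of the 24972 gene names measured (Slc7a1, Slc7a3, Slc7a5, Slc7a6, Slc7a8, Slc3a2, Slc1a5, Slc38a1, Slc38a2 and Slc38a9). Slc7a5 and Slc3a2 encode the subunits of a single transporter, and Slc38a1 and Slc38a2 are neighbours on chromosome 15. RNA came from 3 Tsc2 mut/mut cultures (titled TSC, with conditional Tsc2 alleles) and 3 Tsc2 wt/wt cultures (titled control). Mice of both genotypes carried a Nestin-driven, tamoxifen-activated Cre recombinase and a red fluorescent Cre reporter, and both received tamoxifen as newborn pups. The V-SVZ (ventricular-subventricular zone), a niche of stem cells beside the lateral ventricles, was then dissected. Its cells were kept in EGF and FGF as adherent monolayers and were subcultured before sequencing. Cre acts only in cells that have expressed Nestin, so a culture can hold cells that kept Tsc2. The study reported, from protein blots of the sequenced cultures, that Tsc2 had been lost. It also described the subcultured cells as uniformly positive for the red reporter. The labels do not say whether the 3 cultures of a genotype came from separate animals, so p-values measure the spread between these libraries.

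Cells take up essential amino acids through exchangers that trade them for amino acids already inside. Slc7a5 (LAT1), bound to the glycoprotein encoded by Slc3a2 (4F2hc, CD98), brings in leucine and other large neutral amino acids in exchange for glutamine, and glutamine enters through Slc1a5 (ASCT2) and through the sodium-coupled system A carriers Slc38a1 (SNAT1) and Slc38a2 (SNAT2). Arginine and lysine enter through the cationic carriers Slc7a1 (CAT1) and Slc7a3 (CAT3), while Slc38a9 reports lysosomal arginine to the Rag GTPases that recruit mTORC1. Tsc2 encodes tuberin, which acts below growth factor signals to restrain mTORC1, whereas amino acids act through the Rag GTPases.

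Promoter sequences are shown for a carrier that was higher and a carrier that was lower in the mut/mut libraries, since the members divided in this way. RefSeq windows of the GRCm38.p6 build were held for 6 of the 10 members (Slc7a1, Slc7a6, Slc7a8, Slc3a2, Slc38a2 and Slc38a9). The 250 bases before the annotated start follow for Slc3a2 (chr19:8713898-8714147, minus strand) and Slc38a2 (chr15:96699729-96699978, minus strand), each 5′ to 3′ on the gene's strand. The Slc3a2 window lies inside the gene's full span in GENCODE, which also holds an upstream start.
Slc3a2: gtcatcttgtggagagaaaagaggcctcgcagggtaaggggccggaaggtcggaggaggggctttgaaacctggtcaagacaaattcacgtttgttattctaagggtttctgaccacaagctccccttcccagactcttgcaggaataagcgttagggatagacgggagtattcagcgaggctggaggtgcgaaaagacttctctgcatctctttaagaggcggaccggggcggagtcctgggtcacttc
Slc38a2: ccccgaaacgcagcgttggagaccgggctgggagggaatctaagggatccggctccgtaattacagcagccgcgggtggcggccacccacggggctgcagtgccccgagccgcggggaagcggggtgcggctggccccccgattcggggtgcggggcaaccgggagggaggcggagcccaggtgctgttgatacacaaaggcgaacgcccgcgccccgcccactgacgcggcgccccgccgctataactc
Of these bases, 53.6% were G or C in Slc3a2 and 72% in Slc38a2, against a median of 52.7% over all 32851 windows, which are 50 bases longer. The C/EBP-ATF response element (CARE, TGATGNAA, searched on both strands), through which ATF4 raises amino acid genes, was in none of the 8 windows of the 6 members and in 3.97% of all windows. It was present in windows of 6 other amino acid genes, Slc7a11, Slc7a7, Slc1a4, Asns, Got1 and Pycr1, among 63 listed genes with a window. Stretches of Asns (chr6:7693214-7693243, minus strand) and Slc7a11 (chr3:50443661-50443690, minus strand) are shown with the element in capitals because their values are given below.
Asns: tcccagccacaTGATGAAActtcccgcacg
Slc7a11: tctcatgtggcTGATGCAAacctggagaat
The E-box CACGTG, the letters read by MYC and, within a longer element, by TFEB and TFE3, was likewise in none of the member windows and in 7.15% of all windows. It lay in windows of 4 of the 9 lysosomal carriers with a window, which were Mfsd1, Slc36a1, Slc38a7 and Slc7a14. A match shows only that the letters are present, and matches outside the windows were not sought.

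Values are normalised counts as deposited. In units of 1000000, column totals were 45.0 to 55.7 in the mut/mut libraries and 29 to 30.4 in the wt/wt libraries, and the estimated depth was 22.1 to 48.3 reads in mut/mut and 34.4 to 56.5 reads in wt/wt. Of the 6 libraries, mut/mut replicate 3 was the shallowest library with the highest total. Log2 fold changes compare mut/mut with wt/wt as log2(value + 1), so that positive ones are higher in mut/mut, and "called" means an adjusted p under 0.05 in limma over all genes tested. With this many genes called, 2 other treatments of the values are given beside the members. Setting column totals equal shifted the median log2 fold change of all genes to -0.77, against -0.07 as deposited, and removing a trend with transcript GC content and length shifted it to 0.15. Across genes the fold change followed GC content (Spearman rho 0.59) and length (rho -0.46), and the fitted trend takes with it any difference between genotypes that follows these properties. Tsc2 itself had 4766, 5645 and 8210 normalised counts in the libraries labelled mut/mut, against 3231, 2934 and 2794 in wt/wt (log2 fold change 1.02 ± 0.20, SE, adjusted p = 0.00101 in limma). An exact permutation test, two-sided, gave p = 0.1, which is the lowest p possible with 3 against 3 libraries. With column totals set equal, Tsc2 was no longer called (0.31 ± 0.14, adjusted p = 0.0812), while after removal of the GC and length trend it was (1.24 ± 0.15, adjusted p = 6.39e-05). These values cover the entire gene and not its conditional part alone, so they do not measure recombination.

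All 10 members were detected and tested. In the libraries labelled mut/mut, 4 were called higher (Slc7a5, Slc3a2, Slc1a5 and Slc7a3), 3 were called lower (Slc38a1, Slc38a2 and Slc38a9), and Slc7a1, Slc7a6 and Slc7a8 were not called. The background was high, because 75.5% of the 13964 genes tested were called, 36.8% higher and 38.7% lower. A share of 7 called in 10 is thus close to that of all genes, and what follows rests on the sizes and directions of single members. The median log2 fold change was 0.35 over the members and -0.07 over all genes tested. The groups did not overlap for 8 of 10 members, against 80.6% of all genes tested. The 4 rises were called higher under every one of 15 other settings. The 3 falls were called in each of these except removal of the GC and length trend, where all 3 were called higher.

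**Figure D1:**
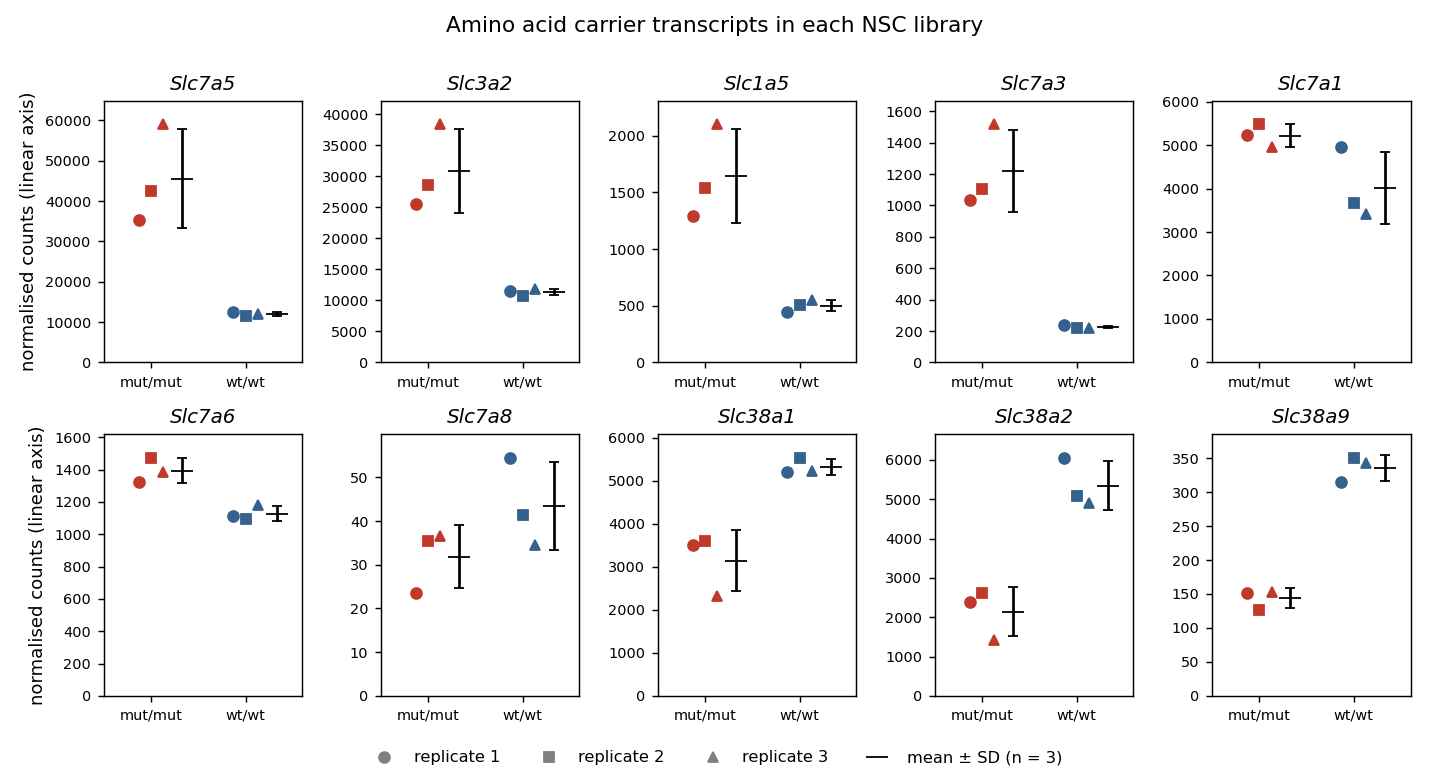
Normalised counts (linear axes from 0) of the 10 carriers in each library, with mut/mut replicates in red left of wt/wt replicates in blue and the mean ± SD of 3 libraries in black. Slc7a5, Slc3a2, Slc1a5 and Slc7a3 lay higher in all 3 mut/mut libraries, Slc38a1, Slc38a2 and Slc38a9 lay lower, and the groups overlapped for Slc7a1 and Slc7a8.

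The subunits of the leucine exchanger were both higher in mut/mut. Slc7a5, the catalytic light chain (chromosome 8, 121881150 to 121907694, minus strand), had 35314, 42447 and 59026 normalised counts in mut/mut, against 12594, 11393 and 11999 in wt/wt. All mut/mut values were above all wt/wt values, and the spread was wider in mut/mut (45596 ± 12166) than in wt/wt (11996 ± 601, each as the mean ± SD of 3 libraries). The log2 fold change of Slc7a5 was 1.89 ± 0.19 (SE, adjusted p = 1.1e-05), or 3.72-fold, larger than that of 94.6% of the genes tested. Slc3a2, the heavy chain that carries the light chain to the cell surface (chromosome 19, 8706882 to 8723369, minus strand), had 25516, 28642 and 38357 normalised counts in mut/mut, against 11445, 10774 and 11760 in wt/wt. These groups did not overlap either, and mut/mut replicate 3 was again the highest library. The log2 fold change of Slc3a2 was 1.42 ± 0.17 (adjusted p = 3.65e-05), or 2.68-fold. With column totals set equal the log2 fold changes were 1.18 for Slc7a5 and 0.71 for Slc3a2, and after removal of the GC and length trend they were 1.36 and 0.88, all called.

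Both subunits were among the most abundant transcripts, with means above 98.8% (Slc7a5) and 98.3% (Slc3a2) of the genes tested. Levels of different genes were compared per kilobase of the longest protein-coding transcript. Per kilobase, Slc7a5 stood above Slc3a2 in mut/mut and below it in wt/wt. The ratio of Slc7a5 to Slc3a2 was 1.11, 1.19 and 1.23 in mut/mut and 0.880, 0.846 and 0.816 in wt/wt, with no overlap. On the log2 scale the ratio differed by 0.47, and by 0.48 after removal of the GC and length trend; a factor common to a whole library cancels in it. Slc3a2 also pairs with other light chains, of which Slc7a6, Slc7a8 and Slc7a11 are described below.

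Slc1a5, which exchanges neutral amino acids and takes up glutamine (chromosome 7, 16781340 to 16798274, plus strand), had 1289, 1541 and 2100 normalised counts in mut/mut, against 447, 509 and 550 in wt/wt. The lowest mut/mut library was thus above the highest wt/wt library. The log2 fold change of Slc1a5 was 1.69 ± 0.21 (adjusted p = 3.87e-05), or 3.22-fold, and stood at 0.97 with equal totals and 0.94 after trend removal, called in both. Per kilobase, however, Slc1a5 reached only 594.6 ± 150.1 in mut/mut and 181.5 ± 18.8 in wt/wt, far under Slc7a5 (12964 ± 3459 in mut/mut and 3411 ± 171 in wt/wt, as the SD of 3 libraries).

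The cationic carriers differed from each other. Slc7a3, which takes up arginine and lysine (chromosome X, 101079210 to 101086020, minus strand), had 1032, 1105 and 1517 normalised counts in mut/mut, against 235, 221 and 221 in wt/wt. This was the largest rise of the set, with a log2 fold change of 2.41 ± 0.20 (adjusted p = 3.54e-06), or 5.30-fold, above that of 98.7% of the genes tested. It was 1.69 with equal totals and 2.39 after trend removal, called in both. Slc7a3 is X-linked, and the libraries also differed in sex-linked transcripts. The Y-linked Ddx3y had 7.43, 4.42 and 2.54 normalised counts in mut/mut and 891, 867 and 932 in wt/wt, and Xist, which is transcribed from the inactive X chromosome, had 351, 290 and 357 in mut/mut and 1107, 87.9 and 68.9 in wt/wt. Y-linked transcripts thus followed genotype in every library, so sex and genotype cannot be told apart in any fold change given here. The part of sex in the member differences, that of Slc7a3 included, was not tested. Both Xist and Ddx3y were present in wt/wt replicate 1. Of the wt/wt libraries, replicate 1 had the most Xist and the highest Slc7a3 value, by a small margin.

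Slc7a1, the widely expressed cationic carrier (chromosome 5, 148327410 to 148399904, minus strand), had 5225, 5478 and 4946 normalised counts in mut/mut, against 4957, 3673 and 3404 in wt/wt. The groups overlapped by the narrowest margin, since wt/wt replicate 1 was just above mut/mut replicate 3. The log2 fold change of Slc7a1 was 0.40 ± 0.17 (adjusted p = 0.0591) and was called higher without wt/wt replicate 1 (0.56, adjusted p = 0.0141) or without mut/mut replicate 3 (0.43, adjusted p = 0.0332). Its direction depended on scaling, at -0.32 (adjusted p = 0.134) with equal totals and 1.11 (adjusted p = 6.55e-05) after trend removal. Per kilobase, Slc7a3 stood at 0.516, 0.526 and 0.801 of Slc7a1 in mut/mut, against 0.124, 0.157 and 0.169 in wt/wt, so Slc7a1 was the more abundant of the pair in every library.

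Slc7a6 and Slc7a8, further light chains of Slc3a2, were not called. Slc7a6 (y+LAT2), which releases arginine in exchange for neutral amino acids (chromosome 8, 106168857 to 106198706, plus strand), had 1322, 1473 and 1388 normalised counts in mut/mut, against 1115, 1092 and 1178 in wt/wt. The groups did not overlap, but the log2 fold change of 0.30 ± 0.15 was not called (adjusted p = 0.0903), except without mut/mut replicate 3 (0.31, adjusted p = 0.0294). Slc7a6 was called lower with equal totals (-0.41, adjusted p = 0.041) and higher after trend removal (0.83, adjusted p = 0.00046). Slc7a8 (LAT2), a neutral amino acid exchanger (chromosome 14, 54722209 to 54781946, minus strand), was the scarcest member, with 23.5, 35.4 and 36.6 normalised counts in mut/mut and 54.5, 41.4 and 34.6 in wt/wt. An estimated 14.5 to 38.0 reads stood behind the mut/mut values and 41.0 to 101 reads behind the wt/wt values. The groups overlapped, and the log2 fold change of -0.44 ± 0.32 was not called (adjusted p = 0.235), although it was with equal totals (-1.14, adjusted p = 0.00872).

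The system A carriers were lower in mut/mut in the values as deposited. Slc38a2, which accumulates glutamine, alanine and other small neutral amino acids (chromosome 15, 96687392 to 96699730, minus strand), had 2396, 2609 and 1426 normalised counts in mut/mut, against 6056, 5081 and 4902 in wt/wt. All mut/mut values lay below all wt/wt values, and mut/mut replicate 3, the highest library for the 4 rising members, was the lowest here. The log2 fold change of Slc38a2 was -1.36 ± 0.23 (adjusted p = 0.000309), which is 0.390 of the wt/wt level. Slc38a1, its neighbour and the other glutamine carrier of this system (chromosome 15, 96571418 to 96642913, minus strand), had 3513, 3594 and 2333 normalised counts in mut/mut, against 5210, 5536 and 5232 in wt/wt. Its log2 fold change was -0.79 ± 0.19 (adjusted p = 0.00319), or 0.580 of the wt/wt level, and the groups did not overlap.

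Slc38a9, the lysosomal arginine sensor (chromosome 13, 112660751 to 112738749, plus strand), had 151, 127 and 153 normalised counts in mut/mut, against 314, 351 and 343 in wt/wt. The groups stood well apart, with a log2 fold change of -1.22 ± 0.20 (adjusted p = 0.000246), or 0.429 of the wt/wt level. An antisense gene, Gm47827, shares 182 of the 16704 exon bases of Slc38a9 in the annotation, and the strand setting of the counting was not given in the sources used here.

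These 3 falls reversed once the GC and length trend was removed, to 0.30 ± 0.12 for Slc38a2 (adjusted p = 0.043), 0.40 ± 0.10 for Slc38a1 (adjusted p = 0.00664) and 0.98 ± 0.23 for Slc38a9 (adjusted p = 0.00398). With equal totals they were larger, at -2.07, -1.50 and -1.93. The falling members had long or GC-poor transcripts: Slc38a2 has 43.9% GC over 4660 bases, Slc38a1 48.5% over 7266 bases and Slc38a9 44.7% over 8910 bases. Slc7a1 (51.3% GC over 7179 bases) was like them in length only, and Slc7a6 (47.9% GC over 3750 bases) in GC content only. Neither was called lower in the values as deposited. The rising members have 49.4% (Slc7a3) to 56.5% GC (Slc1a5) over 2750 to 3517 bases. The direction of the system A carriers and of Slc38a9 therefore depended on this treatment, while that of the 4 rising members did not.

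**Figure D2:**
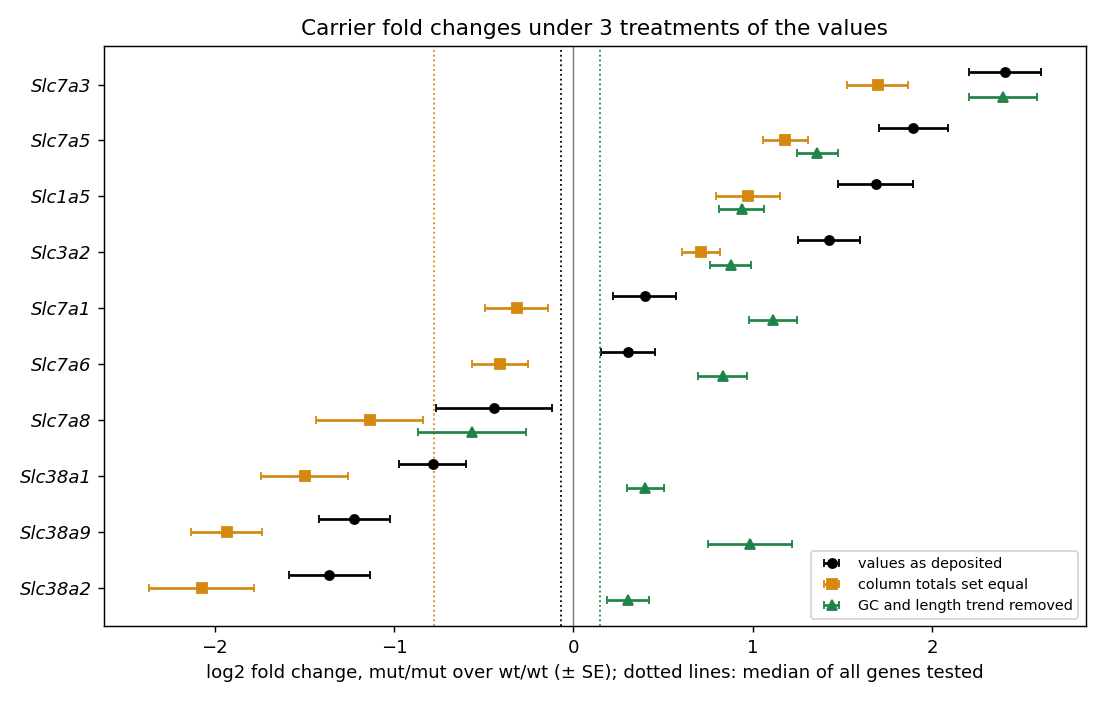
Log2 fold changes (mut/mut over wt/wt, ± SE) of the 10 carriers as deposited (black), with column totals set equal (orange) and after removal of the GC and length trend (green), and dotted lines at the median of all genes under each treatment (-0.07, -0.77 and 0.15). Slc7a3, Slc7a5, Slc1a5 and Slc3a2 stay right of 0 under all 3, whereas Slc38a1, Slc38a9, Slc38a2, Slc7a1 and Slc7a6 change sides.

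The make-up of the carrier transcripts differed between genotypes. The summed level per kilobase of the 10 members was 22054, 25444 and 33442 in mut/mut, against 10950, 10038 and 10479 in wt/wt. Slc7a5 made up 45.5% to 50.2% of this sum in mut/mut and 32.3% to 32.7% in wt/wt. The share of Slc3a2 was closer, at 40.0% to 41.1% in mut/mut and 37.2% to 39.9% in wt/wt. Together, the subunits of the leucine exchanger accounted for 86.7%, 87.5% and 91.0% of the sum in mut/mut and 69.9%, 70.4% and 72.5% in wt/wt. Slc38a1 and Slc38a2 accounted for 4.52%, 4.14% and 1.88% in mut/mut, against 18.4%, 18.4% and 16.9% in wt/wt. Shares are free of a factor common to a library but not of the GC and length trend, and the differences shrank once that trend was removed. The leucine exchanger's subunits then accounted for 83.2%, 83.3% and 84.9% in mut/mut and 80.4%, 80.1% and 81.2% in wt/wt. Of these, Slc7a5 stayed higher in mut/mut (44.7% to 45.7%, against 36.4% to 37.8% in wt/wt), while Slc3a2 was lower (37.6% to 39.3%, against 42.7% to 44.7% in wt/wt). Slc38a1 and Slc38a2 accounted for 6.74%, 6.88% and 5.08% in mut/mut and 10.0%, 10.6% and 9.83% in wt/wt.

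The order of the levels per kilobase changed, both within the leading pair and below it. In mut/mut it ran Slc7a5 (12964 ± 3459), Slc3a2 (10963 ± 2381), Slc7a1 (726.6 ± 37.1), Slc1a5 (594.6 ± 150.1), Slc38a2 (460.0 ± 135.3), Slc7a3 (442.9 ± 95.0), Slc38a1 (433.1 ± 97.1), Slc7a6 (371.8 ± 20.3), Slc38a9 (16.1 ± 1.67) and Slc7a8 (7.79 ± 1.77, SD, n = 3 each). In this order, Slc7a5 and Slc3a2 differed by less than the larger SD although Slc7a5 was ahead in every library, and so did each pair of neighbours from Slc7a1 down to Slc7a6. In wt/wt it ran Slc3a2 (4026 ± 179), Slc7a5 (3411 ± 171), Slc38a2 (1147 ± 133), Slc38a1 (733.0 ± 25.1), Slc7a1 (558.8 ± 115.6), Slc7a6 (300.9 ± 11.9), Slc1a5 (181.5 ± 18.8), Slc7a3 (82.1 ± 3.04), Slc38a9 (37.7 ± 2.15) and Slc7a8 (10.7 ± 2.47, SD, n = 3 each). In wt/wt each of these steps was larger than the SD of either neighbour.

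**Figure D3:**
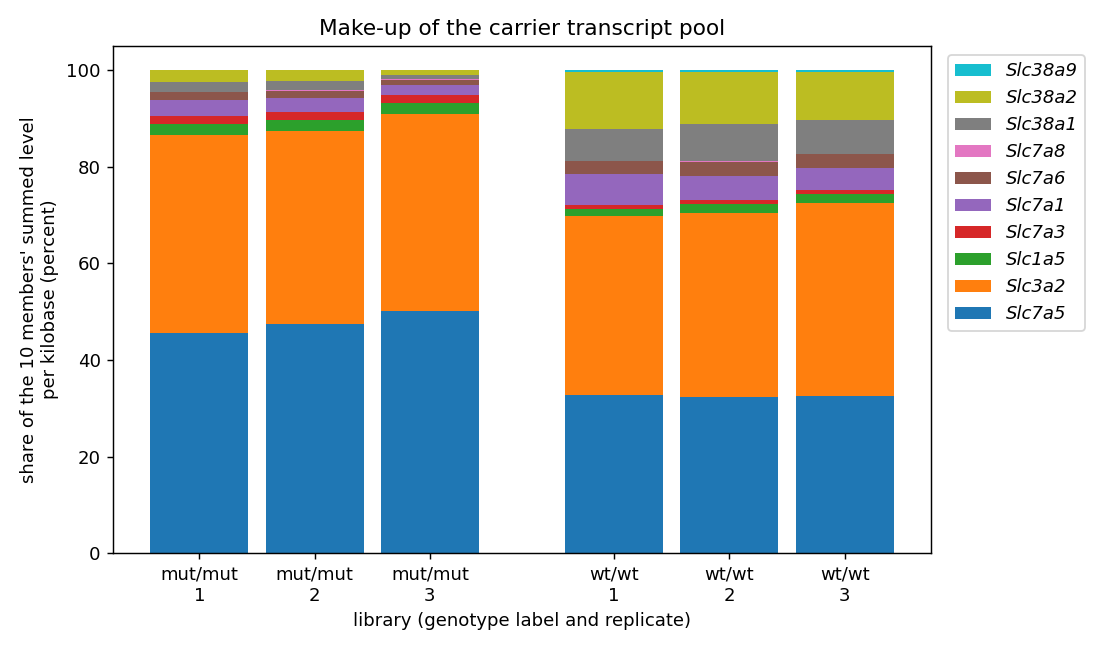
Share (percent) of each carrier in the summed level per kilobase of the 10 members, as stacked bars from 0 for the 3 mut/mut libraries on the left and the 3 wt/wt libraries on the right. Slc7a5 and Slc3a2 together fill 86.7% to 91.0% in mut/mut and 69.9% to 72.5% in wt/wt.

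Genes with the profiles nearest to the exchanger's subunits were sought over the 6 libraries. Likeness was measured as the root-mean-square (RMS) difference of log2 values, each centred on its gene's mean, over 11416 other genes with a mean of at least 100, and it mainly follows the size of the fold change. Nearest to Slc7a5 were Scap (0.038), 2310061I04Rik (0.040) and 1700017B05Rik (0.046), whose log2 fold changes were 1.86, 1.96 and 1.91. Nearest to Slc3a2 were Gde1 (0.025), Mpi (0.028) and Snap47 (0.030), whose log2 fold changes were 1.40, 1.46 and 1.42. Slc7a5 and Slc3a2 differed by 0.241, and Slc3a2 ranked at place 1241 from Slc7a5 and Slc7a5 at place 2019 from Slc3a2, which restates their unequal fold changes.

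Of 22 further carriers, mostly of the plasma membrane, 17 were tested, and 5 were called higher and 6 lower (median log2 fold change 0.09). This is a smaller share than the 75.5% of all genes tested. Slc43a1 (LAT3), a sodium-independent carrier of leucine and other large neutral amino acids, was higher, with 387, 489 and 480 normalised counts in mut/mut and 141, 140 and 96.5 in wt/wt (1.85 ± 0.23, adjusted p = 3.68e-05). Lower were the glutamate transporters Slc1a2 (531, 591 and 809 in mut/mut, against 4441, 5831 and 5901 in wt/wt, -3.08 ± 0.20) and Slc1a1 (-2.95 ± 0.29), the cationic carrier Slc7a2 (-2.41 ± 0.23) and the taurine transporter Slc6a6 (-1.22 ± 0.20, adjusted p at most 0.000306 for these 4). After trend removal, Slc1a2 (-0.69, adjusted p = 0.0565) and Slc7a2 (-0.15, adjusted p = 0.408) were no longer called. Slc7a11 (xCT), the cystine carrier that pairs with Slc3a2, was not called (0.71 ± 1.06, adjusted p = 0.566). Its values were 2161, 2713 and 192 normalised counts in mut/mut, against 929, 524 and 528 in wt/wt, so mut/mut replicate 3 alone lay below wt/wt, and without it the log2 fold change was 1.93 (adjusted p = 0.000165). Slc7a11 was also called higher after trend removal (3.89, adjusted p = 0.00877). Slc6a17, a vesicular neutral amino acid carrier, was not called (0.48 ± 0.22, adjusted p = 0.0694), but was called higher without mut/mut replicate 1 (0.64, adjusted p = 0.0243), after trend removal (0.63, adjusted p = 0.00366) and with a replicate block (adjusted p = 0.0488).

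Of 10 further lysosomal carriers, 9 were tested, with 3 called higher and 3 lower (median -0.15). This is a smaller share than the 75.5% called among all genes tested. Pqlc2, which exports cationic amino acids from the lysosome, was higher, with 653, 589 and 1121 normalised counts in mut/mut and 248, 208 and 237 in wt/wt (1.71 ± 0.25, adjusted p = 0.000135), as was the peptide and histidine carrier Slc15a4 (1.09 ± 0.18, adjusted p = 0.000313). The proton-coupled carrier Slc36a4 was lower (-2.01 ± 0.29, adjusted p = 0.00011) but stood at 0.15 (adjusted p = 0.409) after trend removal, and the sialic acid carrier Slc17a5 was lower under both (-1.53 ± 0.19, and -0.70 after trend removal). Slc15a3, a peptide and histidine carrier of immune cells, had 0, 0 and 5 normalised counts in mut/mut and 237, 149 and 50.8 in wt/wt. Slc36a1 (PAT1), the proton-coupled lysosomal amino acid exporter, and Mfsd1, a lysosomal dipeptide carrier, were not called, at 0.08 ± 0.17 and -0.33 ± 0.20 (adjusted p of 0.705 and 0.15).

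**Figure D4:**
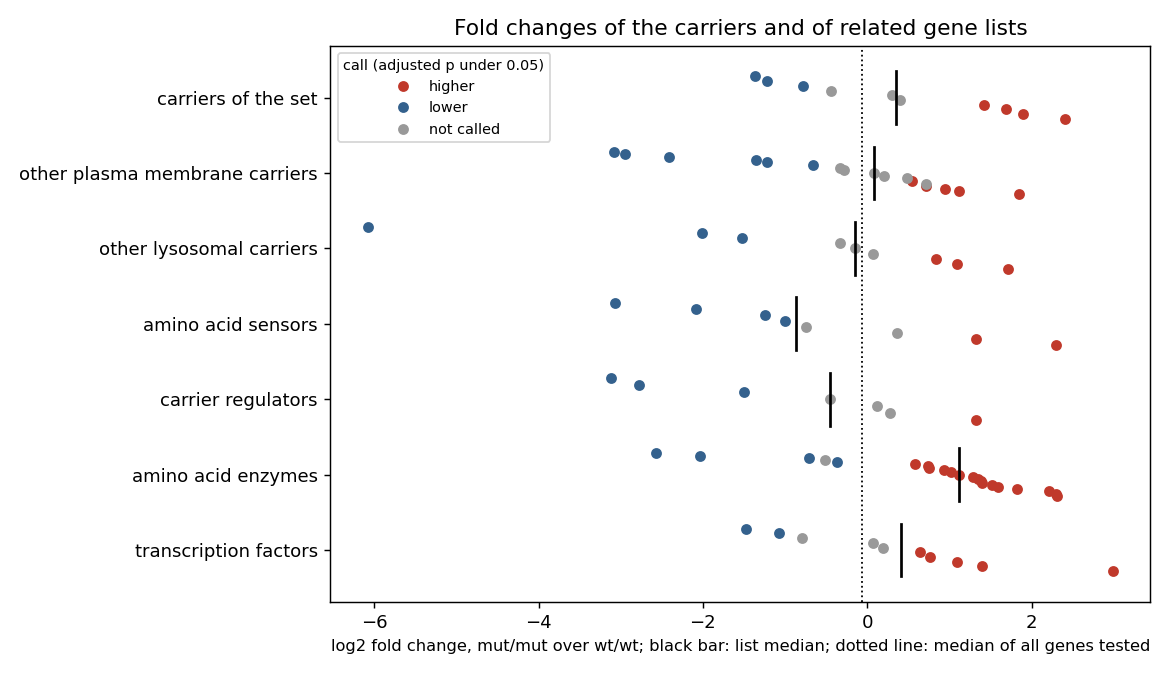
Log2 fold changes (mut/mut over wt/wt) of each tested gene in the carrier set and in 6 lists of related genes, coloured by call, with a black bar at each list's median and a dotted line at the median of all genes tested (-0.07). The carriers span -1.36 to 2.41, and the enzymes of amino acid metabolism have the highest list median, at 1.12. The list of other plasma membrane carriers includes the vesicular Slc6a17.

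Among 8 cytosolic amino acid sensors and their partners, 2 were called higher and 4 lower (median -0.87), close to the 75.5% called among all genes. Sesn2, the leucine sensor that holds back the Rag GTPases through GATOR2, was higher, with 11672, 13370 and 17444 normalised counts in mut/mut and 3262, 2720 and 2546 in wt/wt (2.30 ± 0.19, adjusted p = 3.07e-06). Its relatives Sesn1 (-1.25 ± 0.23, adjusted p = 0.000547) and Sesn3 (-2.08 ± 0.18, adjusted p = 4.52e-06) were lower, although Sesn3 stood at 0.10 (adjusted p = 0.548) after trend removal. Bmt2, which encodes the S-adenosylmethionine sensor SAMTOR, was lower (-3.07 ± 0.19, adjusted p = 7.41e-07) and not called after trend removal (-0.27, adjusted p = 0.123). Castor2 was lower (-0.995 ± 0.20, adjusted p = 0.00104), and its relative Castor1, the arginine sensor, was higher at low values (17.4, 42.8 and 41.8 normalised counts in mut/mut, against 9.24, 13.1 and 14 in wt/wt, 1.33 ± 0.43, adjusted p = 0.0161). Castor1 was not called with equal totals (0.66, adjusted p = 0.181) or after trend removal (0.22, adjusted p = 0.629), nor without mut/mut replicate 2 (1.12, adjusted p = 0.0633), mut/mut replicate 3 (1.13, adjusted p = 0.0519) or wt/wt replicate 1 (1.16, adjusted p = 0.0554). Sar1b and the leucyl-tRNA synthetase Lars were not called, at 0.36 ± 0.16 (adjusted p = 0.057) and -0.75 ± 0.32 (adjusted p = 0.0516). Without mut/mut replicate 3, both were called, at 0.44 (adjusted p = 0.00492) for Sar1b and -0.31 (adjusted p = 0.0494) for Lars, and Lars was also called without mut/mut replicate 1 (-1.02, adjusted p = 0.0144) or mut/mut replicate 2 (-0.91, adjusted p = 0.0384).

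Of 7 regulators that act on carriers at the membrane, 1 was called higher and 3 lower (median -0.45), a smaller share than the 75.5% of all genes tested. Laptm4b, which recruits the leucine exchanger to lysosomes, had 9431, 8646 and 11046 normalised counts in mut/mut and 4455, 3440 and 3738 in wt/wt (1.32 ± 0.17, adjusted p = 4.33e-05). The arrestin-domain genes Arrdc3 (-3.12 ± 0.26) and Txnip (-2.77 ± 0.28) were lower (adjusted p = 3.5e-06 and 1.16e-05). The ubiquitin ligase gene Nedd4 was lower (-1.50 ± 0.28, adjusted p = 0.000643) but not after trend removal (-0.10, adjusted p = 0.575). The ligase genes Nedd4l (0.12 ± 0.17, adjusted p = 0.554) and Rnf5 (0.27 ± 0.15, adjusted p = 0.124) were not called.

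Enzymes that make or use the carried amino acids were mostly higher, with 16 of 21 tested called higher and 4 lower (median 1.12). Over all genes tested, 36.8% were called higher and 38.7% lower. Asparagine synthetase, Asns, had 17173, 16848 and 24090 normalised counts in mut/mut and 3856, 4091 and 3668 in wt/wt (2.30 ± 0.17, adjusted p = 2.13e-06). Odc1, of polyamine synthesis (2.21 ± 0.18), and Got2, the mitochondrial aspartate aminotransferase (1.59 ± 0.16), were higher with adjusted p of at most 1.1e-05. Dbt, a subunit of the branched-chain ketoacid dehydrogenase, was lower (-2.57 ± 0.24, adjusted p = 6.86e-06), and the glutaminase gene Gls2 was not called (-0.51 ± 0.33, adjusted p = 0.178). With equal totals 9 enzymes were called higher and 5 lower, and after trend removal 13 higher and 4 lower.

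Of 10 transcription factors known to act on carrier and amino acid genes, 5 were called higher and 2 lower (median 0.42). That share is close to the 75.5% called among all genes tested. Atf5 had 21454, 21981 and 33664 normalised counts in mut/mut and 4099, 2775 and 2756 in wt/wt (2.99 ± 0.22, adjusted p = 2e-06). Atf4, whose element was searched above, was called higher as deposited (0.76 ± 0.20, adjusted p = 0.0059). Atf4 was not called with equal totals (0.05, adjusted p = 0.832) or after trend removal (-0.14, adjusted p = 0.566). Tfe3, a lysosomal biogenesis factor, was higher (1.39 ± 0.18, adjusted p = 5.42e-05), as was Cebpb (1.09 ± 0.17, adjusted p = 0.000222), although Cebpb stood at 0.01 (adjusted p = 0.957) after trend removal. Ddit3 (CHOP) was lower (-1.48 ± 0.19, adjusted p = 6e-05). Cebpg was lower too (-1.07 ± 0.19, adjusted p = 0.000501) but higher after trend removal (0.74, adjusted p = 0.000622). Myc (0.19 ± 0.16, adjusted p = 0.292) and Nfe2l2 (0.06 ± 0.19, adjusted p = 0.764) were not called.

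Markers of other cell types moved with genotype, in a comparison where 75.5% of all genes tested were called. The NSC markers were all present, and 3 of 10 were called higher and 4 lower. Their summed values were 188973 to 211336 normalised counts in mut/mut and 179708 to 214118 in wt/wt. Vim, the largest part of these sums, was higher as deposited (156728 in mut/mut and 99547 in wt/wt on average). Lower were Fabp7 (7198 and 38443) and Sox2 (6430 and 15248), so the similar sums do not mean unchanged markers. Of 8 microglial markers 7 were tested and all were called lower, with sums of 25.3 to 37.5 in mut/mut and 346.6 to 920.3 in wt/wt. Cx3cr1, Aif1, Ptprc and Itgam were at 0 in all mut/mut libraries, which were also the libraries where Slc15a3 was at or near 0. Of 7 oligodendrocyte lineage markers the 6 tested were lower, with sums of 1195 to 2154 in mut/mut and 12233 to 21764 in wt/wt. Summed neuronal markers were 4005 to 5456 in mut/mut and 13374 to 15076 in wt/wt (2 of 7 higher, 4 lower), and astrocytic markers 55042 to 84422 in mut/mut and 25752 to 38976 in wt/wt (1 of 6 higher, 4 lower). Map2, the largest part of the neuronal sums, was lower (3232 in mut/mut and 13237 in wt/wt on average). Tubb3 was higher as deposited (1391 and 628.4). The astrocytic sum followed Aldh1l1 (60915 in mut/mut and 20356 in wt/wt on average), while Slc1a2, Aqp4, S100b and Gja1 were lower. Smooth muscle and pericyte markers summed to 5465 to 7663 in mut/mut and 136.9 to 221.2 in wt/wt (2 higher among 3 tested of 6). Nearly all of the mut/mut sum came from Acta2 and Tagln, whereas Pdgfrb was not called and Rgs5 averaged 0.310 in mut/mut and 12.7 in wt/wt. Ependymal markers summed to 5849 to 8467 in mut/mut and 705.9 to 1063.5 in wt/wt (1 higher among 3 tested of 5). Most of these sums came from Foxj1 (6776 in mut/mut and 845.1 in wt/wt on average). Rsph1 and Ccdc153 were not called, and Dnah5 averaged 0.311 in mut/mut and 8.42 in wt/wt. Endothelial markers were scarce, at 106.3 to 221.8 in mut/mut and 464.7 to 942.8 in wt/wt (1 higher and 1 lower among 3 tested of 7). Flt1, the largest part of these sums, was lower (116.6 in mut/mut and 731.5 in wt/wt on average). Kdr was higher, at low values (21.4 and 9.34). In bulk samples fewer cells of a type and less RNA per cell cannot be told apart, and the part of these cell types in the carrier differences was not tested.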

How the data were processed

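Poly(A) RNA of 3 Tsc2 mut/mut and 3 Tsc2 wt/wt NSC cultures was sequenced by the study. Per the submitters' processing notes, reads were aligned to mm10 with STAR and normalised by the authors with DESeq2. These normalised counts form the deposited signal per gene, in 1 table of 24972 names. Neither the gene counter nor the strand setting was given in the sources used here. Small values lay near multiples of the estimated worth of 1 read, but only 65.4% to 87.4% of them came within 0.1 of a whole read, so no count test was run. In that table, 6503 names were at 0 throughout and 26 had turned into dates. The label of wt/wt replicate 2 differs from its column by 1 digit, which bears on its replicate number alone.

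Genes with a mean of at least 10 (13964) were tested as log2(value + 1) with limma 3.58.1 in R 4.3.3, using robust settings and a mean-variance trend, and two-sided p-values were adjusted over all of them by Benjamini-Hochberg. This scale understates changes of low genes. The trend with GC content and log length was fitted in each library (mgcv 1.9.3) over 13239 genes with an annotated coding transcript. Positions, lengths and GC content came from GENCODE on mm10 and promoters from RefSeq, read with python 3.11.15. The fit was tested on simulated data. Other settings were pseudocounts of 0.5 and 10, no filter or a mean of at least 100, equal column totals, recomputed size factors, no trend or robust settings, a replicate block and each library left out.

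The members and lists were chosen with earlier results of these data known. Named were all members and Tsc2, and from each list up to 5 genes of smallest adjusted p, and those 2 of highest mean that were not called. A gene that this rule takes is not reported here. For Slc7a5 and Slc3a2, the 3 nearest profiles were also named. Slc7a7, Slc1a4, Got1, Pycr1, Slc38a7 and Slc7a14 were named for promoter matches. Atf4, Castor1, Rgs5 and Dnah5 were named after their values were seen. Of the names in the marker lists, those with the highest means or at 0 were taken.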

Additional observations from a re-analysis of the deposited data

How the results depend on the processing

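Across 15 other settings, the rises of Slc7a5, Slc3a2, Slc1a5 and Slc7a3 were called in each, and the falls of Slc38a1, Slc38a2 and Slc38a9 in each but removal of the GC and length trend. That removal gave 9 members called higher and 0 lower, against 4 and 3 as deposited, with 2 sensors lower and 2 carrier regulators higher. It reversed Slc38a1 (0.40), Slc38a2 (0.30), Slc38a9 (0.98), Slc36a4 (0.15), Mfsd1 (0.43), Sesn3 (0.10), Lars (0.037), Rnf5 (-0.72), Atf4 (-0.14), Cebpg (0.74) and Myc (-0.47), all on the log2 scale. It also moved the log2 differences of the ratios of Slc7a3 to Slc7a1 to 1.28 and of Slc38a2 to Slc38a1 to -0.10, against 2.01 and -0.57. In the shares of the summed level, a look added after seeing the data, it turned the difference of Slc3a2 to -5.23 percentage points, against 2.24. Equal column totals left 2874 genes called higher, with 7612 lower, against 5135 and 5407 as deposited. Of the members 5 were then called lower, of other carriers 1 higher, of lysosomal carriers 6 lower, of sensors 1 higher, of carrier regulators 6 lower, of enzymes 9 higher and of transcription factors 3 higher and 5 lower. They reversed Slc7a1 (-0.32), Slc7a6 (-0.41), Slc7a11 (-0.00051), Slc6a17 (-0.23), Slc36a1 (-0.64), Sar1b (-0.35), Nedd4l (-0.60), Rnf5 (-0.44), Myc (-0.53) and Nfe2l2 (-0.65). Both shifts follow from the construction of these settings, and which scaling is right was not tested. A mean of at least 100 left 1 sensor higher and Slc7a8 untested. Recomputed size factors were equal in all libraries and changed no call.

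Leaving out each library in turn gave 4 to 6 members higher and 3 lower in every case, 1 to 2 sensors higher (1 without mut/mut replicate 2 or wt/wt replicate 1), and 4643 to 5290 genes higher and 4968 to 5507 lower. Slc36a1 ranged over -0.021 to 0.18 and Nfe2l2 over -0.10 to 0.24, Slc36a1 negative only without mut/mut replicate 3 and Nfe2l2 only without mut/mut replicate 1. Deviations of same-numbered libraries were weakly correlated (r = 0.11, -0.004 and 0.07), against -0.095 to 0.050 for the other pairs. Such values cannot show whether the numbers pair the cultures, and the study states no pairing. A fit with the replicate number as a block called 4 members higher and 3 lower, and 5102 genes higher and 5474 lower. With 3 libraries a genotype, and Slc7a8 resting on as few as 14.5 estimated reads, small differences were not detectable. Y-linked transcripts followed genotype, so no setting separates sex from genotype.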
